A study of Saccharomyces cerevisiae with 2 samples.

Results

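Genes of protein entry into the endoplasmic reticulum (ER) and of folding in its lumen were followed through ribosome profiling of budding yeast, the sequencing of mRNA fragments that ribosomes protect. The genes were SEC61, SBH1, SSS1, SEC62, SEC63, SEC66, SEC72, SSH1, KAR2 and PDI1. They were chosen by systematic name, as parts of the same pathway and not by a measured value, although earlier results of these data were known. All 10 were found among the 6666 coding sequences (CDSs) counted in each library. Both libraries came from BY4742, a haploid Saccharomyces cerevisiae strain (mating type alpha) in which the markers HIS3, LEU2, LYS2 and URA3 are inactivated. The cells grew exponentially in synthetic medium and received 50 µg/mL of cycloheximide, which blocks elongating ribosomes. The libraries form a single group of 2 replicates with no second condition, made for a study that asked whether open reading frames between genes are read by ribosomes. Nothing in the labels says that the replicates were separate cultures, so the spread between them may be technical.

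Most proteins that enter the secretory pathway cross the ER membrane through a channel formed by Sec61, with the small subunits Sss1 and Sbh1. The signal recognition particle brings ribosomes to this channel during translation. Chains that are already complete use the channel together with the Sec63 complex, formed by Sec62, Sec63, Sec66 (also called Sec71) and Sec72. Ssh1 is a homolog of Sec61 that forms a separate channel with Sss1 and with Sbh2, a paralog of Sbh1, and serves translocation during translation. In the lumen the Hsp70 chaperone Kar2 (BiP) binds the arriving chain, recruited by the J domain of Sec63, and Pdi1 forms and rearranges disulfide bonds.

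The windows around the annotated start codons of the genes with the highest and lowest footprint density in the channel and in the Sec63 complex, and of both lumenal proteins, are given from the reference. They run 5′ to 3′ on the coding strand of the R64 reference from RefSeq, and capitals mark the start codon.
SSS1 (chrIV:617147-617176, minus strand): aataaaATGgctagagctagtgaaaaaggt
SEC61 (chrXII:877155-877184, minus strand): ttgaaaATGtcctccaaccgtgttctagac
SEC72 (chrXII:720347-720376, minus strand): tcaaccATGgttacccttgaatacaatgca
SEC63 (chrXV:807000-807029, minus strand): agcacaATGcctacaaattacgagtatgat
KAR2 (chrX:381321-381350, plus strand): cataccATGtttttcaacagactaagcgct
PDI1 (chrIII:50198-50227, minus strand): cccgttATGaagttttctgctggtgccgtc
An adenine stood at the third base before the start codon in 9 of the 10 genes, all except PDI1, and in 60.9% of the 5992 CDSs with a full window. SSS1 and SEC61, at opposite ends of the channel's range of densities, have the same 3 bases before the start codon.

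Replicate 1 held 23437283 reads in CDSs and replicate 2 held 2733591, so a single read was worth 0.0427 and 0.366 counts per 1000000 CDS reads (CPM). The deleted markers URA3, LEU2 and LYS2 had at most 2 reads in a library, and HIS3, which the strain carries in part, had 1046 and 116. CPM in replicate 2 was generally lower: the median log2 ratio over the 5131 CDSs that averaged 10 or more reads was -0.61, or 0.657-fold. Scaling by edgeR's TMM factors or DESeq2's size factors removed most of this shift, leaving medians of -0.048 and -0.018. The 10 genes together had 46784 reads in replicate 1 and 3565 in replicate 2, which is 0.200% and 0.130% of the CDS reads. None overlaps another annotated CDS, and no stretch of 28 nt, about the length of a footprint, was shared with another place in the genome.

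The subunits of the Sec61 channel were read at very different densities. Levels between genes are given as footprint density, in CPM per kilobase of coding sequence, since a longer CDS collects more reads. SEC61 (YLR378C, chromosome XII, 875736 to 877178), the channel-forming subunit, had 510 reads in replicate 1 and 55 in replicate 2. Its density was 15.1 and 13.9 CPM per kilobase, a mean of 14.5 ± 0.804 (SD, n = 2), close to the median of annotated CDSs, which was 22.0 and 12.6. SSS1 (YDR086C, chromosome IV, 616928 to 617170), a small tail-anchored protein that is essential for the channel, had 15677 and 1008 reads. Its density was 2753 and 1517 CPM per kilobase, the highest of the 10 genes in both libraries. SBH1 (YER087C-B, chromosome V, 332582 to 332830), the tail-anchored beta subunit, had 2366 and 213 reads and a density of 405 and 313 CPM per kilobase. The ranges of these 3 genes over the libraries did not overlap.

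Per library, the density of SSS1 was 183 times that of SEC61 in replicate 1 (95% exact binomial interval 167 to 200) and 109 times in replicate 2 (82.9 to 145.5), a mean ratio of 146 ± 52.1 (SD, n = 2). SBH1 stood at 26.9 times SEC61 (24.4 to 29.6) and 22.4 times (16.6 to 30.8). The channel is known to hold its subunits in equal numbers, whereas their footprint densities were not equal. SSS1 and SBH1 are short, at 243 and 249 nt against 1443 nt for SEC61. Reads near the start codon weigh more in the density of a short CDS, and the files give no positions within a CDS, so their part in these ratios was not tested.

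**Figure D1:**
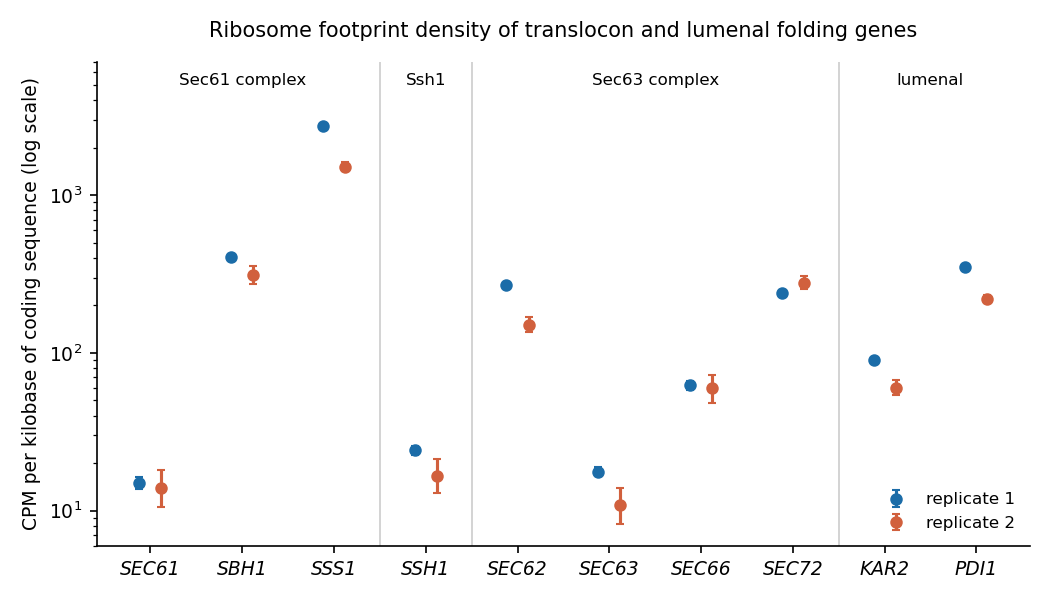
Footprint density of the 10 genes, in CPM per kilobase of coding sequence on a log scale, by complex. Points are the libraries and bars are 95% exact Poisson intervals of the read count. SSS1, at 2753 and 1517, lies far above SEC61, at 15.1 and 13.9.

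SSH1 (YBR283C, chromosome II, 768943 to 770415), the alternative channel, was read at a somewhat higher density than SEC61, beyond counting error in replicate 1 only. It had 834 and 67 reads, and its density of 24.2 and 16.6 CPM per kilobase lay above that of SEC61 in both libraries. The ratio to SEC61 was 1.60 in replicate 1 (1.43 to 1.79) and 1.19 in replicate 2 (0.823 to 1.74), so in replicate 2 the difference was within counting error. SBH2, the beta subunit of the Ssh1 channel, had 409 and 462 CPM per kilobase, which is 16.9 and 27.7 times SSH1. The paralogs SBH1 and SBH2 were read alike in replicate 1, with a ratio of 0.991 (0.937 to 1.05), whereas SBH1 was lower in replicate 2, at 0.678 (0.568 to 0.807). Since Sss1 serves both channels, SSS1 was also set against the sum of SEC61 and SSH1, where its density was 70.2 and 49.6 times as high. Both beta subunits together were 20.8 and 25.3 times the sum of both channels. Both channel-forming subunits were thus read at lower density than all 3 of the small subunits. Among annotated CDSs, SEC61 and SSH1 lay in the middle, at percentiles 46.0 and 53.0 of mean density.

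In the Sec63 complex, SEC62 and SEC72 were read most and SEC63 least. SEC63 (YOR254C, chromosome XV, 805032 to 807023), the J-domain subunit that spans the membrane several times, had 824 and 59 reads and a density of 17.6 and 10.8 CPM per kilobase. SEC62 (YPL094C, chromosome XVI, 369839 to 370663), a membrane protein that takes part in the entry of completed chains, had 5220 and 341 reads, or 269.97 and 151 CPM per kilobase. SEC66 (YBR171W, chromosome II, 578364 to 578984), a membrane protein that holds Sec72 in the complex, had 907 and 101 reads, or 62.3 and 59.5 CPM per kilobase. SEC72 (YLR292C, chromosome XII, 719789 to 720370), a peripheral subunit on the cytosolic face, had 3285 and 442 reads, or 241 and 278 CPM per kilobase. SEC63 had the lowest value of the complex and SEC66 the next lowest in both libraries.

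Relative to SEC63, SEC62 was 15.3 times as dense in replicate 1 (14.2 to 16.5) and 14.0 times in replicate 2 (10.6 to 18.7), a ratio that held between the libraries within counting error. SEC72 was 13.6 times SEC63 in replicate 1 and 25.6 times in replicate 2, with intervals that did not overlap (12.6 to 14.7 and 19.5 to 34.2). The order of SEC62 and SEC72 changed between the libraries, with a ratio of 1.12 (1.07 to 1.17) and then 0.544 (0.471 to 0.628). SEC72 was 3.86 and 4.67 times SEC66, its direct partner, with overlapping intervals. Of the 17 ratios computed, 8 had overlapping intervals in the libraries.

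**Figure D2:**
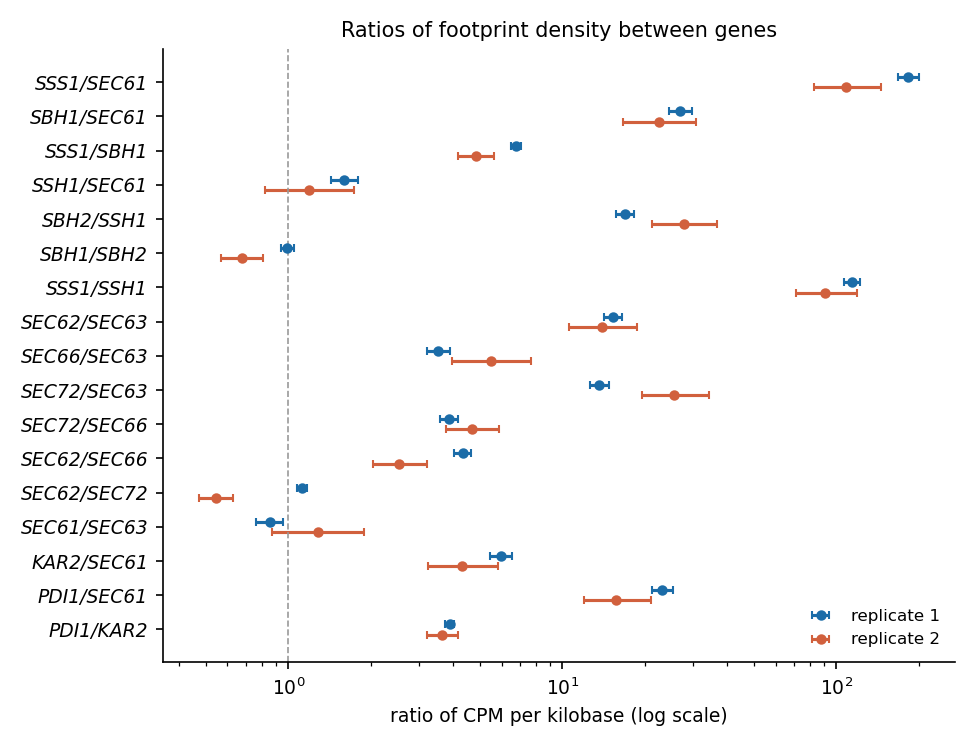
Ratios of footprint density between pairs of genes, on a log scale, in each library with 95% exact binomial intervals. The dashed line marks equal density. SBH1 to SBH2, SEC62 to SEC72, SEC61 to SEC63 and SSH1 to SEC61 lie near it, and SSS1 to SEC61, at 183 and 109, lies farthest.

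KAR2 and PDI1 were read above the channel-forming subunits and below SSS1. KAR2 (YJL034W, chromosome X, 381327 to 383375) had 4323 and 337 reads, a level of 184 and 123 CPM and a density of 90.0 and 60.2 CPM per kilobase. PDI1 (YCL043C, chromosome III, 48653 to 50221) had 12838 and 942 reads, 548 and 345 CPM, and a density of 349 and 219.6 CPM per kilobase. PDI1 was 3.88 times as dense as KAR2 in replicate 1 (3.75 to 4.02) and 3.65 times in replicate 2 (3.22 to 4.15), and the intervals overlapped. KAR2 was 5.97 and 4.32 times SEC61, and PDI1 23.2 and 15.8 times. EUG1, a paralog of PDI1, had 5.74 and 3.77 CPM per kilobase, from 209 and 16 reads, so nearly all reads of this pair lay in PDI1.

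KAR2 is a classical target of the unfolded protein response, in which the kinase Ire1 splices the mRNA of the transcription factor Hac1. The UPR element letters CAGCGTG, searched on both strands from 250 nt before to 50 nt after the start codon, were found in KAR2 alone of the 10 genes. Of the 5992 windows of that length, 1.17% held the letters. The stretch below, with the letters in capitals, begins its match 160 nt before the start codon of KAR2.
KAR2 element (chrX:381156-381185, plus strand): gaggaactggaCAGCGTGtcgaaaaagttg
Of 13 further lumenal folding genes, LHS1 held the letters. HAC1 had 989 and 100 reads, or 58.9 and 51.0 CPM per kilobase of its annotated exons, and IRE1 had 74 and 5 reads. No condition that induces the response was sampled.

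Ordered by mean density, the genes ran SSS1, SBH1, PDI1, SEC72, SEC62, KAR2, SEC66, SSH1, SEC61 and SEC63, with 2135 ± 873 CPM per kilobase for the first and 14.2 ± 4.82 for the last (SD, n = 2). The ranges over the libraries overlapped for SBH1 and PDI1, PDI1 and SEC72, SEC72 and SEC62, KAR2 and SEC66, and SEC61 and SEC63, so these neighbours did not differ beyond the spread of the libraries, which includes the shift of the whole library. Within each library SBH1 nevertheless exceeded PDI1, with count intervals that did not overlap, and KAR2 exceeded SEC66 beyond counting error in replicate 1 only. PDI1 lay above SEC72 in replicate 1 and below it in replicate 2, with count intervals that did not overlap in either library. SEC61 was 0.854 times SEC63 in replicate 1 (0.764 to 0.955) and so the lowest there. In replicate 2 it was 1.29 times SEC63 (0.875 to 1.89). SSS1 stood apart from SBH1, SEC62 from KAR2, SEC66 from SSH1, and SSH1 narrowly from SEC61. Among all 5993 annotated CDSs, SSS1 lay at percentile 97.8 of mean density, and SBH1, PDI1 and SEC72 at 92.9, 91.7 and 91.2. SEC61 and SEC63 lay at 46.0 and 45.7.

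Among the 5196 CDSs with reads in both libraries, shorter ones tended to be denser. Spearman's rho between coding length and mean density was -0.400. CDSs that lacked reads in a library were left out, and a short CDS needs a higher density to have a read. Over the 10 genes rho was -0.624. Both are descriptions, and length enters the density itself. Each gene was therefore also placed among CDSs of 80% to 120% of its length. PDI1 then stood at percentile 95.3 of 1370 CDSs and SSS1 at 93.1 of 175. KAR2, SEC62, SBH1 and SEC72 stood at 87.4, 88.5, 84.1 and 82.7. SEC61 lay at 46.3 of 1371, with SEC63 at 55.2, SSH1 at 55.2 and SEC66 at 60.2. SEC61 and PDI1 differ little in length, at 1443 and 1569 nt, but their densities did not overlap.

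By the way their proteins sit in the membrane, a grouping made after the values were seen, the 3 tail-anchored or peripheral proteins Sss1, Sbh1 and Sec72 had mean densities of 259 to 2135 CPM per kilobase. The 4 proteins that span the membrane repeatedly, Sec61, Ssh1, Sec62 and Sec63, had 14.2 to 211. The soluble lumenal proteins had 75.1 and 284, and Sec66, which has a single span near its N terminus, had 60.9. The tail-anchored and peripheral proteins are also the shortest, at 243 to 582 nt, against 825 to 1992 nt for those that span the membrane repeatedly. Length and topology therefore cannot be told apart between these groups. SEC66 has 621 nt, and KAR2 and PDI1 have 2049 and 1569 nt.

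Codons with T at the middle base encode hydrophobic residues, and their share was 40.3% in SSH1 and 37.8% in SEC61, at percentiles 98.0 and 95.9 of annotated CDSs. In KAR2 and PDI1 it was 28.6% in each, near the median of 28.2%. SSS1, the densest of the 10 genes, had 32.9%, at percentile 85.8. SEC72 and SEC66 had 31.8% and 31.7%, at percentiles 80.6 and 80.2, and SBH1 had 30.9%, at percentile 74.5. SEC62 had 29.7%, at percentile 64.8, and SEC63, the least dense by mean, had 29.3%, at percentile 61.1. Over all CDSs, the fifth with the highest share had a median density of 6.16 and 3.26 CPM per kilobase, and the fifth with the lowest share 40.1 and 23.8, at median lengths of 1032 and 1110 nt. Over the 10 genes this share gave rho = -0.139 with density, a weak value over so few genes. Codon adaptation to the usage of 138 ribosomal protein genes was high in KAR2, SSS1 and PDI1, with an index of 0.534, 0.515 and 0.479 against a median of 0.217. SSH1 and SEC61 also lay above that median, at 0.364 and 0.312 (percentiles 90.4 and 86.3), although their densities were far lower. SEC62 and SEC72, which were read densely, lay above it by less, at 0.252 and 0.229 (percentiles 72.8 and 60.8). Over the 10 genes the index gave rho = 0.103 with density, against 0.471 over 5196 CDSs with reads in both libraries.

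**Figure D3:**
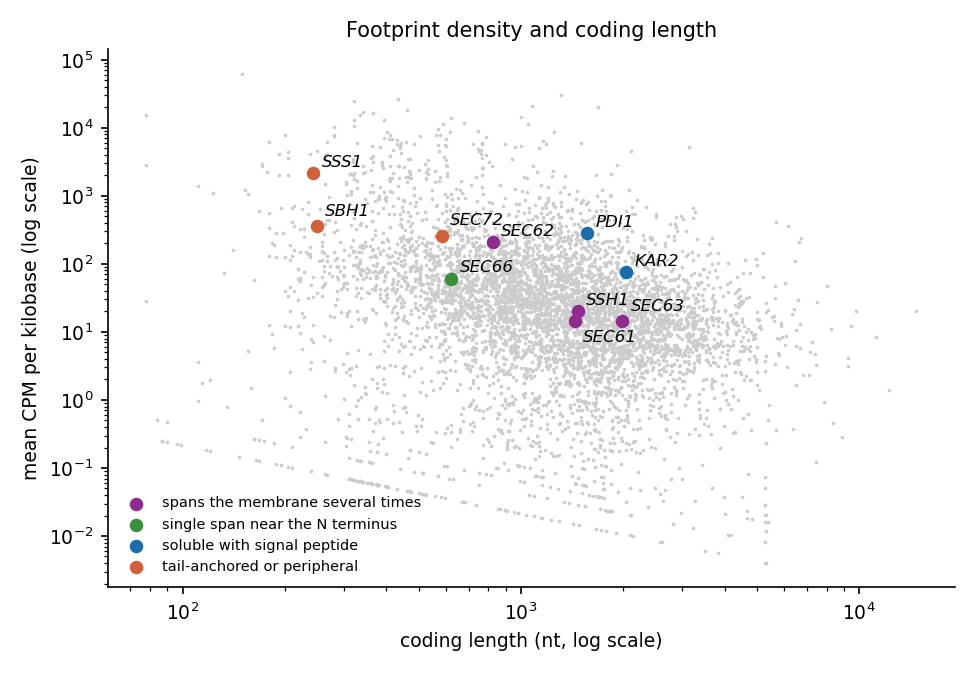
Mean footprint density of annotated CDSs with reads (grey) and of the 10 genes (coloured by membrane topology) against coding length, both axes on a log scale. SEC61, SSH1 and SEC63 lie within the bulk of CDSs of their length, whereas PDI1 and KAR2 lie higher at similar lengths.

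The genes nearest in density over both libraries, by the distance of log2 CPM per kilobase among 5195 CDSs, were ECM29, MAK32 and NUP192 for SEC61. For KAR2 they were MED2, YNL190W and ATP20, and for PDI1 they were YSY6, PAA1 and LSO2. With 2 libraries of a single condition this likeness is one of level only.

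Between the libraries, SSS1 and SEC62 were lower and SEC72 higher in replicate 2 under each of 3 scalings, and the other 7 calls depended on the scaling. The share of all CDSs called alike under each scaling was not computed, so nothing particular to these genes is read from this count. The split of each gene's reads was compared with that of all CDS reads by a two-sided exact binomial test with Benjamini-Hochberg adjustment over all 5131 CDSs tested. This compares the libraries beyond counting error, not conditions. By CDS totals 7 of the 10 genes were lower in replicate 2, where 63.9% of all tested CDSs were lower, and 1 was higher, where 7.25% were. SEC61 and SEC66 were not called. The share of the 10 genes called lower was close to that of all CDSs. With TMM scaling 2 were lower and 3 higher, beside 20.1% and 24.3% of all CDSs, and with DESeq2's size factors 2 were lower and 4 higher, beside 18.4% and 25.7%.

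Relative to the median log2 ratio of all tested CDSs, SEC72 stood highest at 0.81, with 1.15-fold more CPM in replicate 2 (exact interval from 1.04 to 1.27, with an adjusted p of 0.00867 in the exact binomial test). It lay at percentile 91.9 of all ratios. SEC66 and SEC61 followed, at 0.54 and 0.50 above the median, and were higher in replicate 2 with TMM scaling (with an adjusted p of 0.00248 and 0.0496 in the exact binomial test) though slightly lower by CDS totals. SBH1 was lower by CDS totals, not called with TMM scaling and higher with DESeq2's size factors. SSS1 had 0.551-fold the CPM in replicate 2 (0.517 to 0.588), or -0.25 relative to the median, and SEC62 had 0.560-fold (0.501 to 0.625), or -0.23. KAR2, PDI1, SEC63 and SSH1 lay near the median, at 0.029, -0.061, -0.073 and 0.086, and were called lower by CDS totals only. The median of the 10 genes was 0.057 above that of all CDSs.

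**Figure D4:**
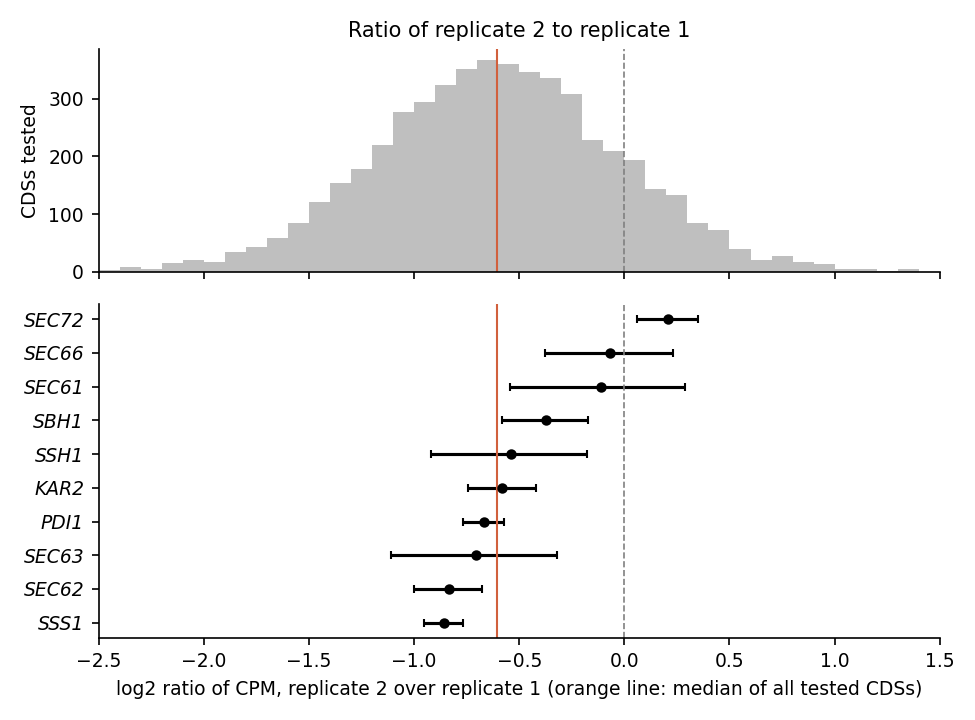
Log2 ratio of CPM, replicate 2 over replicate 1. The upper panel counts all 5131 tested CDSs within the range shown, and the lower panel gives the 10 genes, without a pseudocount, with 95% exact binomial intervals. The orange line is the median of all tested CDSs, -0.61, and the dashed line marks equal CPM. SEC72 lies to the right of both lines, and SSS1 and SEC62 lie to the left.

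The rest of the entry and folding pathway was read over a wider range, from 0.715 to 1393 CPM per kilobase in mean density for the 55 genes of 7 lists. By CDS totals 37 of the 55 were lower and 3 higher in replicate 2, beside 63.9% and 7.25% of all tested CDSs. With TMM scaling 8 were lower and 14 higher, beside 20.1% and 24.3%. The counts of each list stand against these same shares, and nothing particular to a list is read from them. Their median log2 ratio was -0.66, close to that of all CDSs. SBH2, which is in none of these lists, was not called by CDS totals and was higher with TMM scaling.

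Of the lists, tail-anchor and SND targeting, the routes that bypass the signal recognition particle, had the highest median density, with 109 and 85.7 CPM per kilobase. SGT2 led with 958 and 1326 CPM per kilobase. It encodes a cochaperone that receives tail-anchored proteins after synthesis. PHO88, a membrane component of the SND route also named SND3, had 508 and 403, and SND1 was the lowest of the 9 with 25.9 and 21.4. SGT2 was higher in replicate 2 under all 3 scalings, by 1.07 relative to the median log2 ratio. By CDS totals 7 of the 9 were lower and 1 higher, and with TMM scaling 1 was lower and 5 higher.

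The 8 genes of the signal recognition particle and its receptor had median densities of 94.6 and 53.8 CPM per kilobase. By mean density SRP14 led with 304 and 124, followed by SEC65 with 194 and 119, but in replicate 2 alone SRP68 was highest with 132. YKL154W, which encodes the membrane-anchored beta subunit of the receptor, was lowest with 11.2 and 6.97. By CDS totals 7 were lower and none higher, and with TMM scaling 2 were lower and 1 higher.

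Enzymes that act on the arriving chain had lower medians, 32.3 and 23.6 CPM per kilobase for the oligosaccharyltransferase and 50.005 and 23.7 for the signal peptidase. In the former, which attaches glycans, the very short OST4, of 111 nt, had 1155 and 1631 CPM per kilobase. By mean density SWP1 came next with 90.2 and 83.7, and OST6, which shares its role with OST3, was lowest with 5.34 and 2.93. In single libraries OST5 exceeded SWP1 in replicate 1, with 97.3, and OST2 lay below OST6 in replicate 2, with 1.86. STT3, the catalytic subunit, which spans the membrane many times, had 7.73 and 5.77. OST4 was higher in replicate 2 under all 3 scalings. By CDS totals 4 of the 9 were lower and 1 higher, and with TMM scaling none was lower and 3 were higher. The 4 subunits of the signal peptidase lay between 30.4 and 69.3 in mean density, with the catalytic SEC11 at 91.3 and 47.2, SPC1 at 54.3 and 24.4 and SPC2 at 43.7 and 17.0. All 4 were lower by CDS totals, where 63.9% of all tested CDSs were, and with TMM scaling 1, SPC2, was, where 20.1% were.

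By mean density, none of the 13 other lumenal folding genes reached PDI1, and 2 exceeded KAR2. CPR5, an ER cyclophilin, had 146 and 118 CPM per kilobase, and FPR2, an ER proline isomerase, had 89.4 and 166. CNE1, the calnexin homolog, was lowest by mean with 42 reads and 1, and MPD1 had 46 and 0. ERO1, which supplies oxidizing equivalents to Pdi1, had 1003 and 29 reads and was lower in replicate 2 under all 3 scalings, at -1.31 relative to the median log2 ratio. FPR2 moved the other way, at 1.48. By CDS totals 8 of the 13 were lower and 1 higher, and with TMM scaling 2 were lower and 3 higher. The 10 genes of ER-associated degradation, the route by which misfolded proteins leave the ER, were read least, with median densities of 7.80 and 3.86 CPM per kilobase. UBC7, a ubiquitin-conjugating enzyme of the cytosolic face, led with 125 and 49.95, followed by its membrane anchor CUE1 with 40.9 and 37.7. The ubiquitin ligase gene HRD1 was lowest with 55 reads and 1. By CDS totals 7 of the 10 were lower and none higher, and with TMM scaling 2 were lower and 1 higher.

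**Figure D5:**
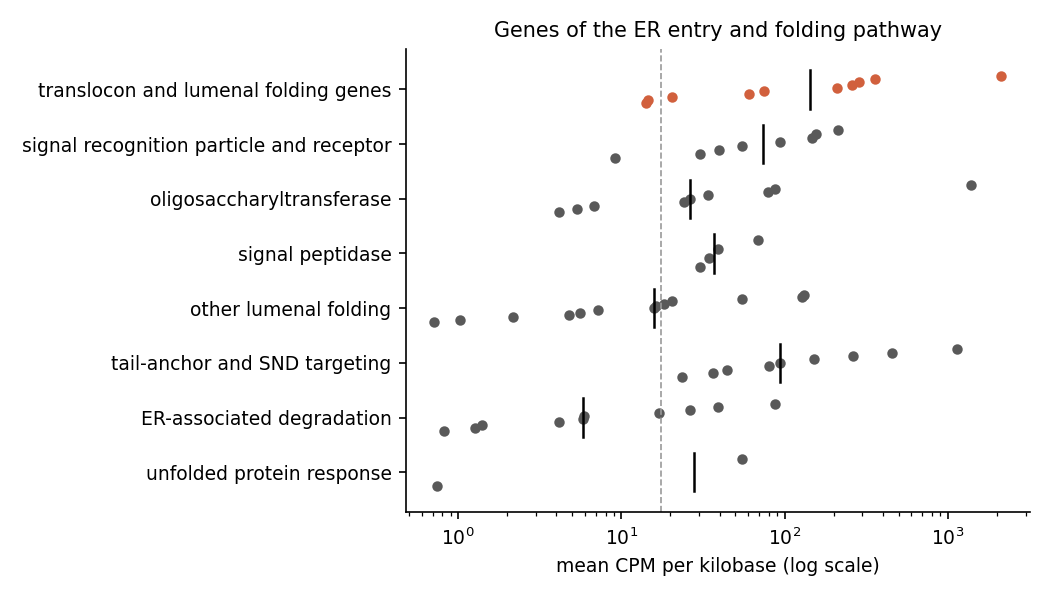
Mean footprint density of the 10 genes (orange) and of 7 lists of the same pathway (grey), on a log scale. Each point is a gene, black bars are list medians, and the dashed line is the median of annotated CDSs, 17.5 CPM per kilobase.

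Open reading frames between genes had few reads beside these CDSs. Within 200 nt lay 113 intergenic open reading frames (IGORFs), of which 5, or 4.42%, had a read in either library, against 5.82% of all 78989. Their reads added up to 3 in replicate 1 and 16 in replicate 2, from library totals of 4057 and 15116 IGORF reads. Replicate 1 thus had 8.57-fold more CDS reads but fewer IGORF reads, and whether each IGORF table belongs to the CDS table of the same label is uncertain. If the IGORF tables were exchanged, the reads beside these genes, 0.128 and 5.85 per 1000000 CDS reads, would be 0.683 and 1.10. Of these, 2 and 10 lay in a single IGORF that begins directly after the stop codon of SBH1 and runs in its frame on the minus strand of chromosome V, from 332450 to 332581. The junction is shown because most of the reads beside these genes lay there, with the SBH1 stop codon in capitals.
SBH1 stop (chrV:332567-332596, minus strand): ggtaagttatttTAAgaattttcttcagta
Footprints that lie across the stop codon and those within the IGORF cannot be told apart in these counts. The IGORF on chromosome II from 770450 to 770557, which ends 34 nt upstream of SSH1, had 1 and 3 reads. The 27 IGORFs upstream of the genes on the same strand had no other read. No IGORF within 200 nt of SSS1, SEC62, SEC66, SEC72, KAR2 or PDI1 had a read in either library, and a count of 0 allows up to 3 reads per library by counting error alone.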

How the data were processed

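Ribosome footprints were sequenced from 2 replicate libraries of BY4742. The authors deposited unnormalized read counts for each CDS and IGORF, per the file headers. The submitters' processing notes name cutadapt, Bowtie, SAMtools and the build sacCer3, without versions. Which counter and annotation were used, and how reads with several positions were handled, is not given in the sources used here. Extracts were cleared of debris by centrifugation, per the labels' protocols, and whether ribosomes bound to ER membranes stayed in the extract is not stated there, so its part in the levels was not tested.

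CPM was computed over the CDS reads of each library, and log2 ratios used a pseudocount of 1 CPM. Gene names, coding lengths (stop codon included) and sequences came from RefSeq's R64, which held 5993 of the 6666 CDS identifiers and all 10 genes. Count intervals are exact Poisson and ratio intervals Clopper-Pearson, both at 95%. They cover counting error only, as do floors of 3 reads. CDSs that averaged 10 or more reads entered the exact binomial test, with a threshold of 0.05 on the adjusted p. The test was checked on simulated data. With 1 group there was no test between conditions.

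The 10 genes and all lists were chosen with earlier results of these data known. Named list genes are the 2 highest and the lowest of each list by mean density and those whose log2 ratio lay more than 1 from the median. SRP68, OST2, OST3, OST5 and MPD1 were named in addition, outside this rule. STT3 and the comparisons by topology, length and codon content were chosen after values were seen. Alternatives changed the scaling, minimum count, pseudocount, coding length, IGORF distance, pairing of the IGORF tables and libraries used. Tools were edgeR 4.0.16 and DESeq2 1.42.0 in R 4.3.3, and Python 3.11.15 with scipy 1.17.1, Biopython 1.88 and pandas 2.3.3.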

Additional observations from a re-analysis of the deposited data

How the results depend on the processing

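The order of the 10 genes by mean density held with shorter coding lengths, and with totals that left out the 15 CDSs with the most reads. Other totals scale all genes of a library alike, so the order within a library could not change. With these totals 5 of the 10 mean densities moved by more than 1 SD. With 20 codons taken off each length 3 did, and with 27 nt taken off 1 did. With 2 libraries, neither can lie more than 1 SD from their mean, so leaving out a library was no check on levels or ratios. From replicate 1 or replicate 2 alone, the highest density was 183 and 140.1 times the lowest, 6 and 8 of the 10 genes kept their rank, and SSS1 was 183 and 109 times SEC61, SBH1 26.9 and 22.4 times SEC61, SEC62 15.3 and 14.0 times SEC63, SEC72 13.6 and 25.6 times SEC63, and PDI1 3.88 and 3.65 times KAR2. With 20 codons taken off each length, SBH1 was 31.1 times SEC61 in place of 24.7. All reads were kept in this setting, so the ratio of a shorter CDS to a longer could only rise. The part of reads near the start codon was not tested by it. The calls between the libraries turned on the scaling. Of the 10 genes, 7 lower and 1 higher by CDS totals became 2 and 3 with TMM scaling and 2 and 4 with DESeq2's size factors, and of 55 list genes 37 and 3 became 8 and 14 with either. The log2 ratio turned positive with TMM scaling and DESeq2's size factors for SEC61 (0.46 and 0.45), SBH1 (0.22 and 0.24), SEC66 (0.52 and 0.52), SSH1 (0.057 and 0.080) and KAR2 (0.015 and 0.044). Without the 15 CDSs with the most reads in the totals it did so for SEC61 (0.019) and SEC66 (0.064). Other minimum counts and pseudocounts changed no call of the 10 genes. Reads of IGORFs beside the genes, 0.128 and 5.85 per 1000000 CDS reads in replicates 1 and 2, would be 0.683 and 1.10 if the libraries' IGORF tables were exchanged. Depth limits replicate 2 most, where SEC61, SEC63 and SSH1 rest on 55 to 67 reads. No paired analysis was possible because both libraries belong to 1 group.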
